A study of Danio rerio with 12 samples.

Results

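The cytosolic ribosomal protein genes are the 79 genes, of 31778 in both count tables, whose identifier maps to a zebrafish symbol that begins with rpl, rplp or rps followed by a digit, or that is rpsa or faua. They comprise 44 large subunit and 35 small subunit genes, and all 79 passed the filter on low counts in both genotypes. The rule left out 11 rps6k kinases, the binding protein gene rps19bp1, 5 genes named as "-like" copies (rpl7l1, rpl22l1, rplp2l, rps26l and rps27l) and faub. The counts were estimated by assigning reads between transcripts, so how reads were divided between close paralogues is uncertain. Counts and medians cover all 79 genes, and 73 of them are shown by name.

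RNA was sequenced from fractions of whole zebrafish larvae at 5 days post fertilization (dpf). WT larvae came from an incross of mia40a+/+ fish and mutant larvae from an incross of mia40a+/- fish, both in the Tg(Xla.Eef1a1:mlsEGFP)cms1 background, in which a Xenopus Eef1a1 promoter drives a mitochondrially targeted EGFP. mia40a is the former name of chchd4a, which encodes the receptor of the import pathway into the mitochondrial intermembrane space, and chchd4a-/- larvae were sorted by their fluorescence before collection. The membrane-bound (MB) fraction was the pellet of a medium-speed spin, which holds mitochondria and endoplasmic reticulum, and the high-speed (HS) fraction was pelleted from the remaining supernatant by ultracentrifugation. The paper also found part of the endoplasmic reticulum in HS. It describes HS as a mix of ribosomes bound to that reticulum and free polysomes (mRNAs carrying ribosomes) of the cytosol. The isolation buffer held magnesium and cycloheximide, which keep ribosomes on mRNA. Each combination of genotype and fraction had 3 libraries, 12 in all, each from pooled larvae. WT and chchd4a-/- larvae came from different crosses, so that a difference between crosses and the mutation cannot be told apart. A fraction of whole larvae mixes all tissues, and fewer cells of a type and less RNA per cell cannot be told apart.

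A cytosolic ribosome is built in the nucleolus from ribosomal RNA and ribosomal proteins, which are themselves made on ribosomes in the cytosol and imported into the nucleus. The small subunit decodes the mRNA and the large subunit joins amino acids, with a lateral stalk that recruits elongation factors. In mammals, ribosomal protein mRNAs begin with a 5' terminal oligopyrimidine (TOP) tract, through which nutrient and stress signalling switches their translation together. They are soluble proteins of the cytosol and nucleus and are not secreted or inserted into membranes.

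Gene counts ran from 45621537 to 96059916 per library, and spike-in RNA took 1.77 to 30.03% of all counts. The spike-in share differed by group, at 9.82 to 30.03% in WT HS and 3.15 to 8.21% in chchd4a-/- HS. It was 2.88 to 7.22% in WT MB and 1.77 to 2.68% in chchd4a-/- MB, and was highest in WT HS library 1. Library 1 of the WT HS group stood apart, with a correlation across genes of 0.930 to 0.946 with the other 2 WT HS libraries, against 0.995 between those. WT MB library 1 correlated at 0.980 to 0.983 with its group, against 0.997 between the other 2. The chchd4a-/- HS libraries correlated at 0.960 to 0.982, lowest between libraries 2 and 3, and the chchd4a-/- MB libraries at 0.985 to 0.990. The targeted gene was checked first. In the order of libraries 1, 2 and 3, used throughout, chchd4a had 3.80, 11.9997 and 12.4 CPM (counts scaled to library size, with TMM factors) in WT HS and 17.5, 11.4 and 27.0 in chchd4a-/- HS. Its MB values were 4.57, 5.27 and 5.46 in WT and 6.68, 7.89 and 8.18 in chchd4a-/-. The transcript was thus not lower in the libraries labelled chchd4a-/-, by edgeR's quasi-likelihood test 0.98 ± 0.39 (SE) on the log2 scale in HS with an adjusted p of 0.0938, and its level gives no check of those labels. Replicates are libraries of the same label, and each p-value sets a difference against the spread between them.

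Ribosomal protein mRNAs took a larger share of the HS than of the MB libraries in both genotypes, and the gap was wider in chchd4a-/-. In WT HS the 79 genes held 10.4, 11.3 and 11.5% of gene counts, and in WT MB 8.62, 5.62 and 5.70%. In chchd4a-/- HS they held 14.4, 14.7 and 17.3%, and in chchd4a-/- MB 6.83, 5.23 and 6.10%. The 2 fractions did not overlap in either genotype, and the 3 chchd4a-/- HS libraries lay above all 3 WT HS libraries, whereas the MB ranges of the genotypes overlapped. The mean share was 11.1% ± 0.561 (SD, n = 3) in WT HS, 6.65% ± 1.71 in WT MB, 15.5% ± 1.57 in chchd4a-/- HS and 6.06% ± 0.802 in chchd4a-/- MB. The mitochondrial genome's 13 mRNAs took 11.7 to 17.7% of the WT MB libraries, 5.01 to 9.46% of the chchd4a-/- MB libraries and 1.19 to 1.87% of all HS libraries. With those 13 genes left out of the total, the shares were 11.2% ± 0.563 and 7.83% ± 2.29 in WT HS and MB, and 15.7% ± 1.57 and 6.52% ± 1.02 in chchd4a-/- HS and MB. The WT fractions then nearly met, with MB library 1 at 10.5% and HS library 1 at 10.6%. A single gene without a symbol, ENSDARG00000080337, took 18.3, 8.49 and 6.38% of the WT HS libraries and 4.53 to 8.05% of the WT MB libraries, but at most 1.82% of any chchd4a-/- library. Without this gene, a total chosen after seeing the data, the members held 12.8, 12.3 and 12.3% of WT HS and 14.4, 14.8 and 17.6% of chchd4a-/- HS, so that the gap between the genotypes was smaller and the libraries still did not overlap.

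**Figure D1:**
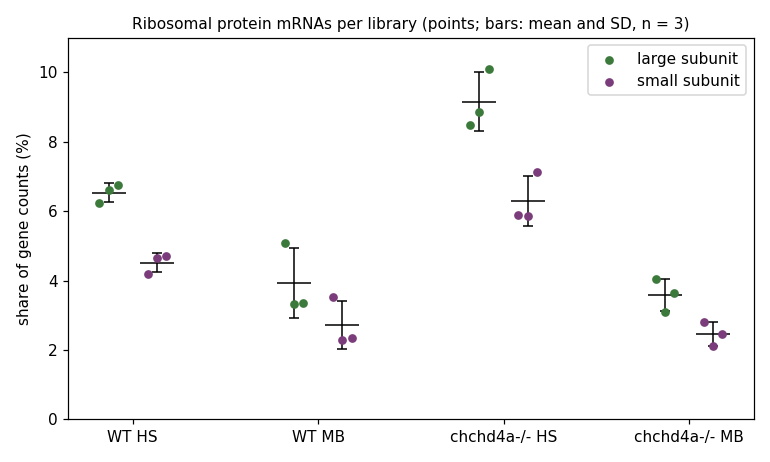
Share of gene counts (%, vertical axis from 0) taken by the 44 large and the 35 small subunit genes in each of the 12 libraries; points are libraries, bars are the mean and SD of 3. Both subunits lay higher in HS than in MB in each genotype, and highest in chchd4a-/- HS, where large subunit genes took 8.48 to 10.1% and small subunit genes 5.85 to 7.14%.

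The subunits moved together. Large subunit genes held 1.42 to 1.52 times the counts of small subunit genes in every one of the 12 libraries, with no separation by fraction or genotype. The highest value, 1.52, was in chchd4a-/- HS library 2, in which rplp0 was also highest. In WT the median log2 MB/HS was -1.19 over large subunit and -1.25 over small subunit genes. In chchd4a-/- the medians were -2.13 and -2.20. Computed within same-numbered pairs of libraries, the large subunit median lay above the small subunit median by 0.03 ± 0.04 (SD, n = 3) in WT and by -0.004 ± 0.080 in chchd4a-/-. The difference between subunits was therefore no larger than the spread between pairs.

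The question put to the MB and HS fractions of WT larvae was which mRNAs associate with membranes. Ribosomal protein mRNAs were HS-enriched, with a median log2 MB/HS of -1.21 over the 79 genes, where the median of all 23733 genes tested was 0.08. The quartiles of the members were -1.42 and -0.96, and 78 of 79 lay below 0. By edgeR's quasi-likelihood test, 52 of 79 were HS-enriched at an adjusted p of 0.05 or less, 28 of 44 large and 24 of 35 small subunit genes, and none was MB-enriched. Of all genes tested, 13.3% were HS-enriched and 12.4% MB-enriched. Of the 52, 50 were highly enriched, with at least a 2-fold difference (log2 of -1 or less), a class that held 10.8% of all genes. The HS and MB libraries did not overlap for 69 members, against 20.8% of all genes, and 69 members had an unadjusted p under 0.05 in that direction, against 19.7%. With same-numbered libraries as a block, 72 members were called, including all 52. The share of all genes called with the block is not given here, so the 72 cannot be set against it.

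The WT count of calls rested on few libraries, although the direction did not. Without WT HS library 1 it was 64, without WT HS library 2 it was 10, and without WT HS library 3 it was 23. Without WT MB library 1 it was 74, and without WT MB library 2 or 3 it was 0, where 52 and 51 members had an unadjusted p under 0.05. Without library 1 of both fractions, 78 members were HS-enriched. The spread between replicates that edgeR fitted to all genes (common dispersion) was then 0.00980, against 0.0998 in the main WT fit. Shares of all genes called under these omissions are not given here. The counts therefore do not show whether calls changed more for the members than for other genes. The members' median stayed between -1.57 and -1.14 in all 6 single omissions. Within same-numbered pairs, the WT median was -0.78, -1.57 and -1.45, so that the pair of libraries numbered 1 showed the smallest enrichment.

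**Figure D2:**
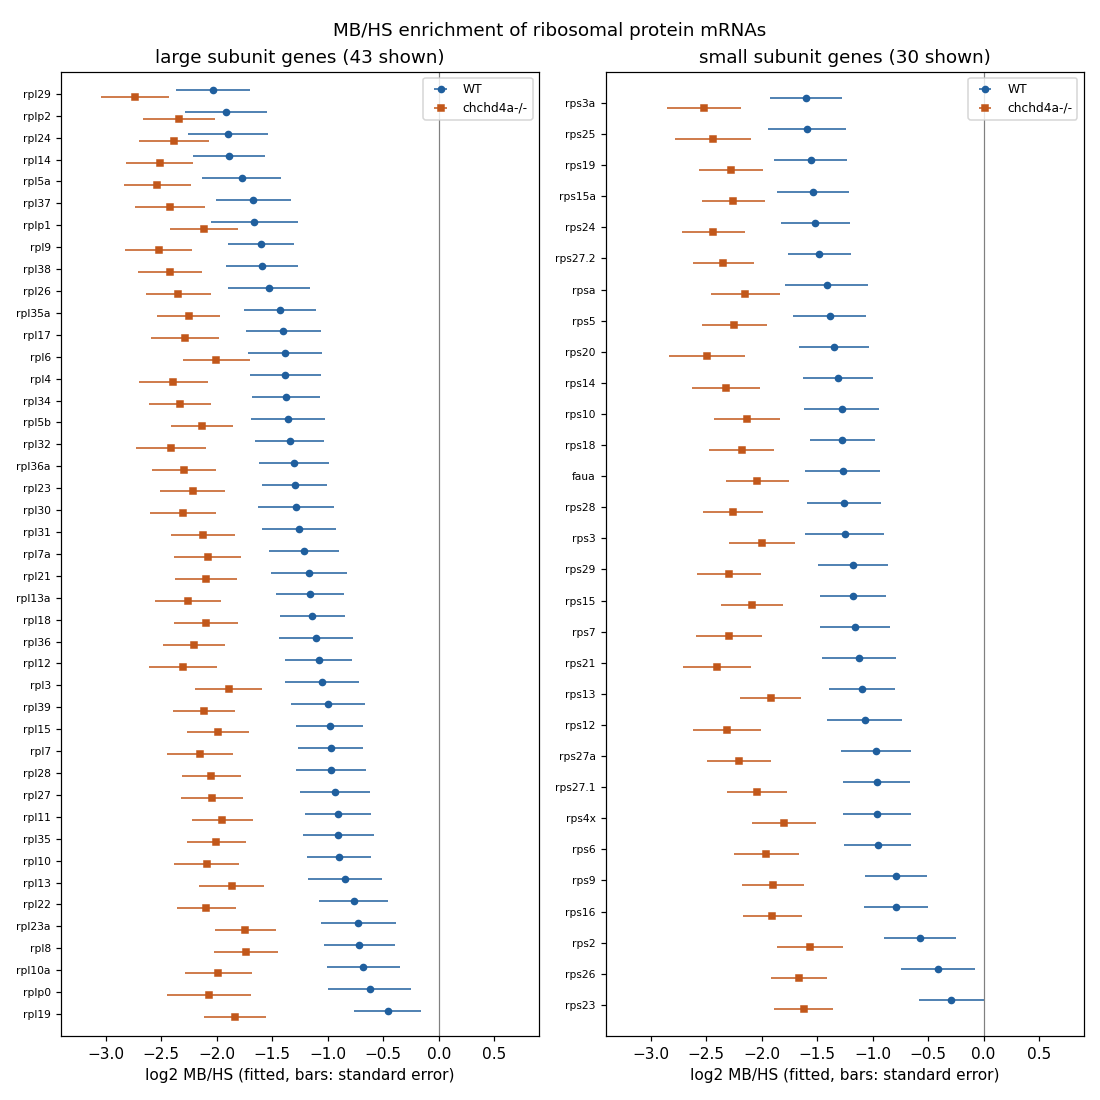
Fitted log2 MB/HS (horizontal axis) of 73 ribosomal protein genes, 43 of the large and 30 of the small subunit, sorted by WT value within each subunit; circles are WT, squares chchd4a-/-, and bars the standard error. Values ran from -2.04 for rpl29 to -0.29 for rps23 in WT and from -2.74 for rpl29 to -1.57 for rps2 in chchd4a-/-, and each square lay left of its circle.

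At the HS-enriched end in WT stood rpl29, a eukaryote-specific protein of the large subunit surface. It had 1102, 957 and 1017 CPM in HS and 375, 188 and 185 CPM in MB. All 3 HS libraries lay well above all 3 MB libraries, a 4.10-fold difference (log2 -2.04 ± 0.34 SE, adjusted p = 0.00951). rplp2, an acidic protein of the lateral stalk, had 2340.3, 1475 and 1277 CPM in HS and 642, 336 and 364 CPM in MB. Again the fractions did not overlap (log2 -1.92 ± 0.37, adjusted p = 0.0141). rpl24, which contacts the small subunit across the ribosome's interface, had 3984, 2911 and 2805 CPM in HS and 1277, 631 and 683 CPM in MB (log2 -1.90 ± 0.36, adjusted p = 0.0132). rpl14 was at -1.89 ± 0.32. For these 4 genes library 1 gave the highest MB value of its group.

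At the other end, 4 mRNAs showed little or no enrichment in WT. rps23, a protein of the decoding centre, had 632, 484 and 503 CPM in HS and 614, 342 and 362 CPM in MB. Its MB library 1 reached the level of the HS libraries, and the fractions overlapped (log2 -0.29 ± 0.29, adjusted p = 0.479). rps26, which in yeast contacts mRNA upstream of the start codon, had 328, 253 and 219 CPM in HS and 298, 146 and 155 CPM in MB (log2 -0.41 ± 0.33, adjusted p = 0.379). rpl19, whose protein reaches across to the small subunit, had 1145, 1017 and 974 CPM in HS and 1082, 564 and 628 CPM in MB (log2 -0.46 ± 0.30, adjusted p = 0.283). For both genes MB library 1 fell within the HS range and the other MB libraries below it. rps2, near the mRNA entry channel, was at -0.57 ± 0.33 with an adjusted p of 0.220. Without library 1 of both fractions, rps23, rps26, rpl19 and rps2 were called HS-enriched, at -0.48, -0.64, -0.74 and -0.75. The share of all genes called in that setting is not given here.

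**Figure D3:**
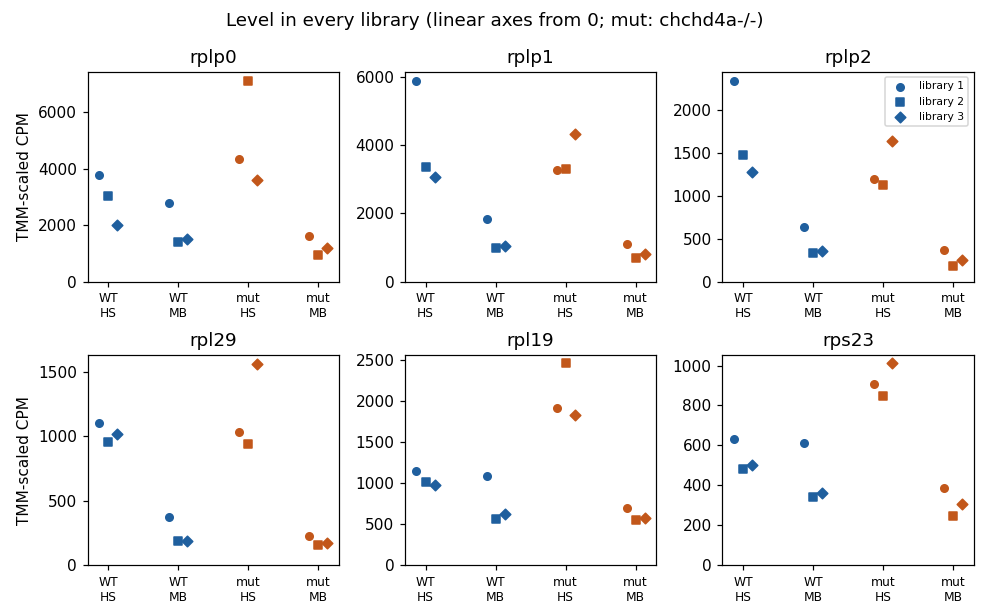
TMM-scaled CPM (vertical axes, linear from 0) of 6 ribosomal protein genes in each library; blue is WT, orange chchd4a-/- (mut), and the marker shape gives the library number. rpl29 separated HS from MB in both genotypes, and rpl19 and rps23 separated them in chchd4a-/- and not in WT.

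The same comparison in chchd4a-/- larvae asked how these locations stand when import into mitochondria is impaired. 78 of 79 ribosomal protein mRNAs were HS-enriched, all of them highly, where 20.0% of all 23854 genes tested were HS-enriched and 13.8% highly so. The median log2 MB/HS was -2.15 over the members and -0.01 over all genes, with member quartiles of -2.326 and -2.004. HS and MB libraries did not overlap for 78 members, against 23.8% of all genes. The count was 78 in each of the 6 single omissions and with same-numbered libraries as a block. Shares of all genes called in those settings are not given here. Within same-numbered pairs the median was -1.65, -2.32 and -2.36, again smallest in the pair numbered 1.

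**Figure D4:**
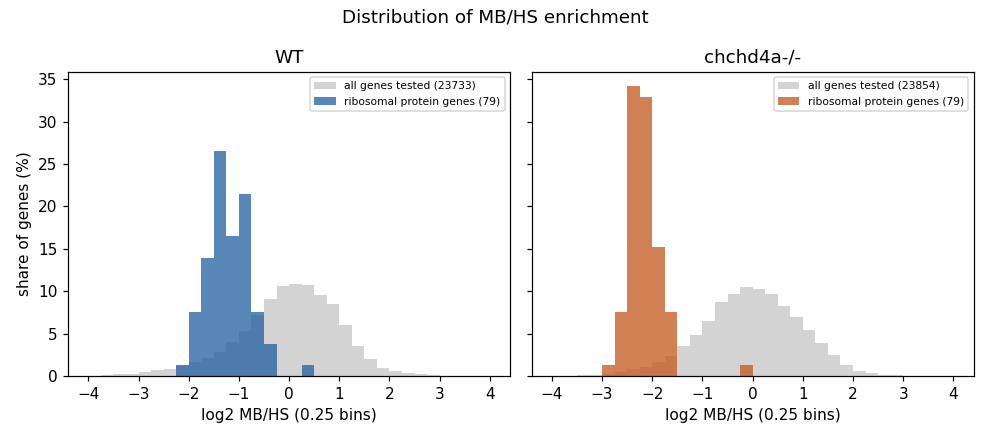
Distribution of log2 MB/HS in bins of 0.25 (share of genes in %, vertical axis) for all genes tested (grey) and the 79 ribosomal protein genes (coloured), in WT and in chchd4a-/-. The members' median was -1.21 in WT and -2.15 in chchd4a-/-, while the medians of all genes were 0.08 and -0.01.

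Of the genes named, rpl29 showed the largest difference in chchd4a-/-, with 1036, 943 and 1559 CPM in HS and 228, 153 and 170.4 CPM in MB. The lowest HS library lay well above the highest MB library, a 6.66-fold difference (log2 -2.74 ± 0.30, adjusted p = 0.00118). rpl5a was at -2.54 ± 0.30 and rpl9 at -2.52 ± 0.30, both with fractions that did not overlap. The smallest differences among the named genes were those of rps2 at -1.57 ± 0.30, rps23 at -1.62 ± 0.26 and rps26 at -1.66 ± 0.25. For rps23 the chchd4a-/- HS libraries had 907, 849 and 1014 CPM and the MB libraries 387, 244 and 304 CPM, without overlap (adjusted p = 0.00253). The WT fractions overlapped through MB library 1, and the difference in MB/HS between genotypes did not pass its test (adjusted p = 0.199).

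The order of the members was similar in the genotypes. Across the 73 members shown by name, the fitted WT and chchd4a-/- enrichments had a Pearson correlation of 0.83 and a Spearman correlation of 0.81. Genes are not independent replicates, and the values of a genotype come from the same 6 libraries. Of these, 7 of the 10 most HS-enriched and 6 of the 10 least enriched were the same in both. Between single pairs of libraries the correlation of the members' MB/HS values ran from 0.53, for WT pair 3 with chchd4a-/- pair 2, to 0.93, for WT pairs 2 and 3.

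The genotypes were compared directly in 1 fit of all 12 libraries. Fitted MB/HS was lower in chchd4a-/- than in WT for all 79 members. The median interaction was -0.92 on the log2 scale (large subunit -0.94, small subunit -0.86), against -0.07 over all 23452 genes tested. No member passed the test of this difference, nor did any other gene in edgeR (0.0% called). An unadjusted p under 0.05 was reached by 43 of 79 members and, in that direction, by 6.01% of all genes. DESeq2 called 3 members, rpl19 and rps23 among them. The share of all genes that DESeq2 called is not given here, so the 3 cannot be set against it. The median was -0.54 without WT MB library 1 and -1.09 without WT MB library 2, the extremes of the 12 single omissions, and -0.62 without library 1 of both WT fractions, an alternative added after seeing the data.

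rplp0, the protein that anchors the stalk to the large subunit, had the largest interaction. Its HS values were 3777, 3019 and 1996 CPM in WT and 4327, 7105 and 3604 CPM in chchd4a-/-. Its MB values were 2767, 1421 and 1511 CPM in WT and 1609, 953 and 1188 CPM in chchd4a-/-. In HS the genotypes overlapped and chchd4a-/- library 2 stood highest (interaction -1.38 ± 0.53, adjusted p = 0.259). rpl19 followed at -1.31 ± 0.39 (adjusted p = 0.195), rps23 at -1.27 ± 0.39 (0.199), rpl22 at -1.27 ± 0.40 (0.206) and rpl10a, the L1 stalk protein, at -1.24 ± 0.44 (0.233). The smallest interactions among the named genes were -0.37 ± 0.49 for rplp2 and -0.39 ± 0.48 for rplp1.

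Comparing the genotypes within each fraction, on the TMM scale, showed both sides of this difference. In HS, 75 of 79 members had a higher fitted level in chchd4a-/-, with a median of 0.42 (large subunit 0.46, small subunit 0.39) against 0.06 over all genes. In MB, 78 of 79 had a lower one, with a median of -0.49 against -0.03 over all genes. With spike-in totals the MB median was 0.74 against 1.08 over all genes, so the direction in MB depended on the scale. 74 members were higher in HS and lower in MB. Few single genes passed the test. In HS, 1 member was called higher, where 7.25% of all genes were, and 12 had an unadjusted p under 0.05, where 16.4% of all genes did in that direction. WT and chchd4a-/- HS libraries did not overlap for 46 members, all higher in the mutant, where 16.3% of all genes did so. In MB no member was called (0.0256% of all genes were called lower), 5 had an unadjusted p under 0.05, where 6.4% of all genes did in that direction, and the genotypes overlapped for all 79, where 15.3% of all genes were lower without overlap.

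The member called higher in chchd4a-/- HS was rpl19. It had 1145, 1017 and 974 CPM in WT HS and 1919, 2469.5 and 1838 CPM in chchd4a-/- HS. All 3 mutant libraries lay above all 3 WT libraries, a 1.99-fold difference (log2 0.99 ± 0.28, adjusted p = 0.0260). The call was lost without WT HS library 2 or 3 and without chchd4a-/- HS library 1 or 2, when no member was called, and its adjusted p reached 0.0828 over the alternatives. rpl22, an RNA-binding protein of the large subunit, had 672, 528 and 556 CPM in WT HS and 933, 983 and 1210.5 CPM in chchd4a-/- HS, without overlap (log2 0.83 ± 0.28, adjusted p = 0.0560). rps23 was at 0.78 ± 0.27 (0.0643), also without overlap. rplp0 was at 0.77 ± 0.37 (0.157).

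**Figure D5:**
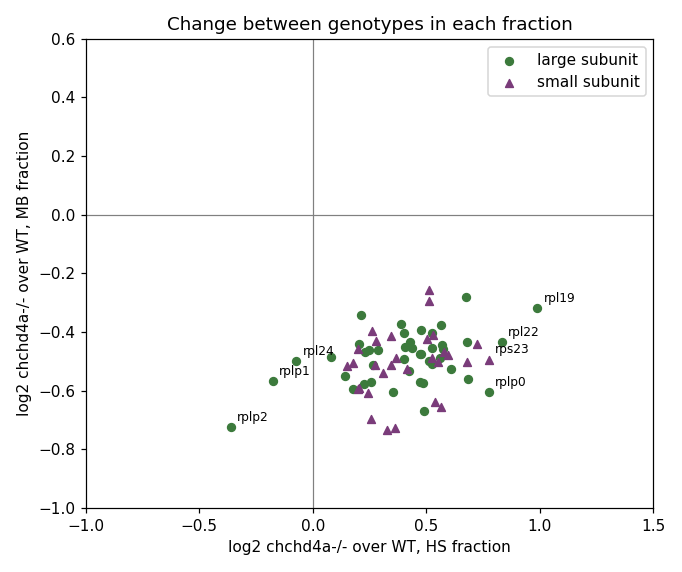
Fitted log2 change of 73 ribosomal protein genes between chchd4a-/- and WT in the HS fraction (horizontal axis) and in the MB fraction (vertical axis); circles are large subunit and triangles small subunit genes. 70 of these genes lay in the lower right quadrant, higher in HS and lower in MB, and rplp1, rplp2 and rpl24 lay below 0 in both.

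In MB the largest changes were those of rps29 (-0.73 ± 0.30), rps20 (-0.73 ± 0.33), rplp2 (-0.73 ± 0.35), rps14 (-0.70 ± 0.31) and rpl12 (-0.67 ± 0.29), with adjusted p of 0.418 to 0.510. rps29, a small subunit protein with a zinc-binding fold, had 444, 217 and 239 CPM in WT MB and 233, 141 and 167 CPM in chchd4a-/- MB. WT library 1 stood above the rest, and the remaining WT libraries overlapped the mutant libraries. Without WT MB library 1 the median MB change of the members was -0.12, and the change of rps29 was -0.32.

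The stalk proteins did not follow a single pattern. rplp0 was less HS-enriched in WT (-0.62 ± 0.37, adjusted p = 0.245) than the acidic proteins that it carries, rplp1 (-1.66 ± 0.39, 0.0235) and rplp2. The ratio of rplp1 to rplp0 counts, in which gene length cancels between libraries, was 1.56, 1.12 and 1.53 in WT HS and 0.667, 0.692 and 0.690 in WT MB. The fractions did not overlap (log2 difference MB minus HS -1.02, exact permutation p = 0.1, the smallest that 3 against 3 libraries can give). In chchd4a-/- the ratio was 0.753, 0.467 and 1.20 in HS and 0.685, 0.733 and 0.683 in MB, with overlap (-0.10, exact permutation p = 0.7). The ratio of rplp2 to rplp0 was 0.620, 0.489 and 0.640 in WT HS and 0.232, 0.237 and 0.241 in WT MB (-1.29, exact p = 0.1), and 0.276, 0.159 and 0.456 in chchd4a-/- HS and 0.229, 0.195 and 0.217 in chchd4a-/- MB (-0.35, exact p = 0.6). In HS the rplp2 to rplp0 ratio was thus lower in each chchd4a-/- library than in each WT library (-1.09, exact p = 0.1). rplp1 in HS was at 5884, 3369 and 3056 CPM in WT and 3257, 3315 and 4322 CPM in chchd4a-/-, overlapping between genotypes.

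Paralogue pairs were compared by the ratio of their counts within each library. 7 ratios were compared, 5 of them between copies, each with a two-sided exact permutation test in 4 contrasts. None of these 28 tests can reach a p below 0.1, and adjusted for their number the lowest was 0.156. rpl5a and rpl5b encode the same partner of 5S ribosomal RNA. Their ratio was 1.25, 1.14 and 1.12 in WT HS and 0.889, 0.879 and 0.886 in WT MB, and 1.101, 1.16 and 1.22 in chchd4a-/- HS and 0.908, 0.856 and 0.871 in chchd4a-/- MB. The ratio was higher in all 6 HS libraries than in any of the 6 MB libraries, with a log2 difference of -0.40 in both genotypes (exact p = 0.1 in each).

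The rps27.1 to rps27.2 ratio moved opposite to that of the rpl5 pair, from 0.896, 0.712 and 0.698 in WT HS to 1.15, 1.04 and 1.04 in WT MB (0.49, exact p = 0.1). In chchd4a-/- it was 0.753, 0.819 and 0.744 in HS and 0.949, 0.897 and 1.01 in MB (0.30, exact p = 0.1). rps27.2 was called HS-enriched in WT (-1.48 ± 0.29, adjusted p = 0.0143), and rps27.1 was not (-0.96 ± 0.30, 0.0525) unless same-numbered libraries were a block (0.0217).

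3 pairs join a member with a left-out copy. The rps26 to rps26l ratio was higher in MB, by 0.62 in WT and 0.18 in chchd4a-/- (exact p = 0.1 in each, no overlap), and the rplp2 to rplp2l ratio was lower in MB, by -0.49 and -0.54 (exact p = 0.1 in each, no overlap). The faua to faub ratio overlapped between fractions in both genotypes (exact p = 1.0 and 0.5). Log2 MB/HS of the left-out copies in WT and chchd4a-/- was -1.48 and -1.67 for faub, -1.41 and -1.82 for rplp2l, -1.35 and -2.37 for rpl22l1, -1.21 and -1.88 for rps27l, -1.03 and -1.84 for rps26l, and -0.35 and -0.60 for rpl7l1.

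rpsa, faua and rps27a encode proteins with a second identity. rpsa, the small subunit protein also known as the laminin receptor, had 6771, 5079.9 and 3900.2 CPM in WT HS and 2873, 1421 and 1592 CPM in WT MB (log2 -1.42 ± 0.38, adjusted p = 0.0329). In chchd4a-/- it had 5262, 6397 and 5826 CPM in HS and 1688, 1089 and 1342 CPM in MB (-2.15 ± 0.31, 0.00168). faua, made as a fusion of a ubiquitin-like protein with a small subunit protein, was at -1.27 ± 0.34 (0.0329) in WT and -2.04 ± 0.28 (0.00148) in chchd4a-/-. rps27a, made as a fusion with ubiquitin, had 1991, 1853 and 1619.6 CPM in WT HS and 1334, 709 and 732 CPM in WT MB. These did not overlap, at -0.97 ± 0.31 with an adjusted p of 0.0582, and 0.0196 with same-numbered libraries as a block. In chchd4a-/- rps27a was at -2.20 ± 0.29 (0.00131).

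Lists of related genes were counted beside the members. Of 20 elongation factors and other TOP mRNAs, 15 were matched, and 4 were HS-enriched in WT and 13 in chchd4a-/-, against 13.3% and 20.0% of all genes, with medians of -0.82 and -1.76. Their most HS-enriched genes in WT were eef1g, a subunit of elongation factor 1 (-2.50 ± 0.50, adjusted p = 0.0154), and pabpc1b, a poly(A)-binding protein (-2.50 ± 0.31, 0.00576). eef2a.2, a copy of elongation factor 2, was the highest, at 0.74 ± 0.35 in WT and 0.74 ± 0.41 in chchd4a-/-, without passing the test. In HS, eef1b2, the exchange factor of elongation factor 1 (1.03 ± 0.27, 0.0183), and naca, of the nascent chain-associated complex (0.81 ± 0.25, 0.0395), were higher in chchd4a-/-, where 7.25% of all genes were, and the median was 0.48. The lowest of the list in that comparison were pabpc1a (-1.03 ± 0.40, adjusted p = 0.0872) and pabpc1b (-0.68 ± 0.29, 0.116), neither of them called.

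Ribosome biogenesis factors, which assemble ribosomes in the nucleolus, were counted in the same way, with 54 of 57 matched. 20 were HS-enriched in WT, with a median of -0.68, where 13.3% of all genes were HS-enriched. In chchd4a-/- 17 were HS-enriched and 4 MB-enriched, with a median of -0.46, where 20.0% of all genes were HS-enriched and 17.0% MB-enriched. nop56 and dkc1, of the particles that modify ribosomal RNA, were lowest in WT at -2.55 ± 0.44 and -2.47 ± 0.42. In HS, 19 of 54 were lower in chchd4a-/- and none higher, with a median of -0.37, where 2809 of the 23452 genes tested were lower. mdn1, a large ATPase that remodels the precursor of the large subunit, was at -2.82 ± 0.46 (adjusted p = 0.00353), and dkc1 at -2.41 ± 0.51 (0.00758). The interaction had a median of 0.26 over these 54 genes and -0.92 over the ribosomal protein genes, and no gene of either list passed its test.

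Mitochondrial ribosomal protein genes, whose products are imported into mitochondria, were taken by symbol (mrpl or mrps and a digit), 76 in all. Whether each product is part of the mitochondrial ribosome was not checked. Their median log2 MB/HS was -0.71 in WT and -1.17 in chchd4a-/-. In these genotypes 34 and 60 of them were HS-enriched, against 13.3% and 20.0% of all genes. Between genotypes, 9 of 76 were higher and 2 lower in chchd4a-/- HS, where 7.25% of all genes were higher and 2809 of 23452 lower. mrps36 (1.42 ± 0.26, adjusted p = 0.00472) and mrps16 (1.17 ± 0.28, 0.0126) were the highest, and mrpl58 (-0.89 ± 0.26, 0.0327) the lowest.

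Markers of tissues were summed in each library, and none of the matched markers was at 0 in any library. 3 of 5 neuron markers were matched and took 0.207 to 0.292% of WT HS and 0.0609 to 0.163% of chchd4a-/- HS counts. 6 of 11 muscle markers, present under 8 identifiers, took 2.07 to 2.19% of WT HS and 1.68 to 5.18% of chchd4a-/- HS counts. All 5 liver markers took 0.0865 to 0.226% of WT HS and 0.242 to 0.362% of chchd4a-/- HS counts. Between fractions, all 5 photoreceptor markers took 0.0613 to 0.116% of WT HS and 0.303 to 0.480% of WT MB counts, and 0.0942 to 0.180% and 0.295 to 0.344% of chchd4a-/- HS and MB counts. The 6 exocrine pancreas markers took 0.425 to 0.910% of WT MB and 0.203 to 0.313% of chchd4a-/- MB counts. All 4 lens markers took 0.109 to 0.207% of WT MB and 0.305 to 0.337% of chchd4a-/- MB counts. 4 of 5 red blood cell markers were matched and took 0.0204 to 0.0279% and 0.0330 to 0.0533% of these. In HS the genotypes overlapped for both lists. The part of these shifts, and of the mitochondrial share, in the ribosomal protein results was not tested.

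The scale of all these values is relative within a library. Scaling by library totals in place of TMM moved all genes by 0.51 in WT, and 39 members were then HS-enriched and 1 MB-enriched. Per the paper's methods, spike-ins were added to a set amount of RNA from each sample, so their scale is relative to that RNA and not to larvae or whole fractions. Scaling by the spike-ins moved the median of all genes to 2.62 in WT and 1.92 in chchd4a-/-, and that of the members to 1.22 and -0.27. On that scale no member was HS-enriched in either genotype, and 8 in WT and 1 in chchd4a-/- were MB-enriched. The members' median lay 1.403 below that of all genes in WT and 2.19 below it in chchd4a-/-, and 78 and 79 of 79 members lay below the median of all genes. Between genotypes in HS, spike-in scaling moved all genes to 1.82 and the members to 2.22, and called 78 members higher. This was a shift of 1.76 in the median of all genes. The members' median lay 0.398 above that of all genes, against 0.363 with TMM. Between genotypes in MB, the members' median was -0.14 with library totals and 0.74 with spike-in totals. The medians of all genes were then 0.30 and 1.08. The share of all genes called higher on that scale is not given here.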

How the data were processed

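The authors pseudo-aligned reads with Salmon 1.4.0, per the labels and methods, to transcripts of GRCz11 (danRer11, Ensembl annotation) with ERCC spike-ins, and deposited expected counts per gene, unnormalized, for 12 libraries (poly(A) capture, stranded kit). 30.5% of the values were not whole, and all were rounded. Names came from the study's supplementary gene lists (59 of 79 members) and otherwise from the reference table of gene names; all 79 symbols were found in RefSeq. The members, gene lists and tests were chosen with earlier results of these data known.

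Genes with more than 50 counts in a genotype's libraries were tested with edgeR 4.0.16 (R 4.3.3) by the quasi-likelihood F test, with TMM scaling and Benjamini-Hochberg adjustment over all genes tested. MB was compared with HS within each genotype, and genotypes within each fraction and by interaction in 1 fit of 12 libraries. A gene was called at an adjusted p of 0.05 or less, and called highly enriched with a log2 change of 1 or more in size. The standard error is the size of the log2 change divided by the square root of F. The study's methods used DESeq2; DESeq2 1.42.0 was run here as an alternative, beside library totals, spike-in totals, TMM without the members and mitochondrial genes, other filters (none, or 10 counts in every library), a replicate block and omission of each library. Gene counts per library, 45621537 to 96059916, set the counting precision. Scripts were tested on simulated data.

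Same-numbered MB and HS libraries deviated together from their group means across genes (correlations 0.480 to 0.600 in WT and 0.312 to 0.542 in chchd4a-/-). In WT, HS library 3 correlated at 0.509 with MB library 2 and at 0.480 with MB library 3. HS library 2 correlated at 0.347 with MB library 3, so the numbers of WT libraries 2 and 3 were not clearly matched. The block and the within-pair values treated library numbers as linking MB with HS of the same genotype, and the main tests did not. Between WT and chchd4a-/- the correlations of same-numbered libraries were -0.195 to 0.326. Genes named in the text were the 5 lowest and 5 highest members in each genotype, the 5 with the largest change between genotypes in each fraction and in the interaction, the paralogue pairs, the stalk genes, rpsa, faua and rps27a, and the extremes of each list; eef1b2, naca and rpl24's and rplp1's place in the genotype comparison were added after their values were seen. No gene lengths or sequences were used here, so levels were not compared between genes. Some genes that this rule would name are not reported here; they stay in the counts and medians.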

Additional observations from a re-analysis of the deposited data

How the results depend on the processing

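Over the alternatives tried, 78 members stayed HS-enriched in chchd4a-/- except with spike-in totals, when 0 were called; with spike-in totals 0 were called HS-enriched in WT too, and 78 were higher in chchd4a-/- HS. In WT the count was 69 with DESeq2, 39 with library totals, 1 at an adjusted p of 0.01 or less, and 0 to 74 when 1 library was left out. For chchd4a-/- against WT in HS, where 1 member was called, 3 were called with a replicate block (rpl19, rpl22 and rps23), 5 with DESeq2, 9 with library totals, 2 with at least 10 counts in every library, 6 without library 1 of both WT fractions (chosen after seeing the data) and 0 to 4 without 1 library. The block of the genotype comparisons gave same-numbered WT and chchd4a-/- libraries a common effect, a link that the labels do not give. Shares of all genes called under the alternatives are not given here, and those printed above belong to the main fits. The interaction had 3 calls with DESeq2 and 0 in every edgeR alternative, and the MB comparison of genotypes had 0 in all of them. The large minus small subunit difference of the WT medians, 0.061 as reported, ran from -0.012 (without WT HS replicate 1) to 0.043 without 1 library, and that of chchd4a-/-, 0.076, from 0.019 to 0.090. Relative to the shift of all genes (1.76), spike-in totals gave rplp1 0.044 in the HS comparison of genotypes, in place of a value below 0. The cause of these changes was not tested. The replicate block changed no call of a member in chchd4a-/-, the interaction or the MB comparison. Of the values of single genes under the alternatives, 1175 kept their direction and side of the threshold, 57 lost and 52 gained a call, and 1 reversed. These counts do not include changes of sign on the spike-in scale before the shift of all genes is taken off. On that scale the members' median MB/HS in WT was 1.22 in place of -1.21. The median change between genotypes in MB was 0.74 in place of -0.49. No member shown by name was below 119 CPM (rps26) in any library, so counting error was small for all of them. Leaving the unnamed gene ENSDARG00000080337 out of the total moved the mean share of the members in WT HS from 11.1% to 12.4%. With the mitochondrial mRNAs also left out, a total likewise chosen after seeing the data, it was 12.7% in WT HS and 8.47% in WT MB; the chchd4a-/- shares moved by less than 1 SD.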
